A study of Mus musculus with 48 samples.

Results

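Livers of mice labelled SHP knockout were compared with livers of wild-type C57BL/6 mice taken at 6pm on the day of an ethanol binge. The comparison was chosen by the labels alone and holds 6 of the 48 libraries of the series, 3 for each genotype. All 6 mice had taken a Lieber-DeCarli liquid diet with 5% ethanol over 10 days and then 5 g/kg ethanol at 9am on day 11. The other livers came from mice on a maltose diet that received 9 g/kg maltose dextrin, or were taken at 12am, 6am and 12pm, again with 3 mice per group. The labels give no age, no strain for the knockout-labelled mice and no account of which part of the gene was removed or in which cells. The series' title places SHP beside REV-ERBα and the CYP4A enzymes in alcoholic liver injury, and the comparison asks what the genotype label goes with in ethanol livers at this hour.

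SHP, encoded by Nr0b2, is an orphan nuclear receptor without a DNA-binding domain. It binds other nuclear receptors, among them LRH-1 (Nr5a2) and HNF4α (Hnf4a), and represses their targets. In liver it is induced by the bile acid receptor FXR (Nr1h4) and is best known for repression of bile acid synthesis, with further roles in lipid and drug metabolism. REV-ERBα (Nr1d1) represses clock activators such as Arntl and Npas2.

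Read counts recovered from the deposited FPKM summed to 13666512 to 19651790 per library. All levels below are normalised FPKM, the deposited FPKM divided by a scale factor, and are given for replicates 0, 1 and 2 in that order. Differences are knockout-labelled minus wild type on the log2(normalised FPKM + 0.5) scale, with standard errors from limma and p-values adjusted over the 13765 genes tested. A gene was called at an adjusted p of at most 0.05. Livers named as left out were left out singly, with their adjusted p-values in the same order. Hepatocyte markers summed to 92663 to 99909 in the knockout-labelled and 76960 to 78718 in the wild-type livers, with none of the 12 at 0. These sums depend on the scale factors, which were 0.772 to 0.898 in the knockout-labelled and 0.961 to 1.027 in the wild-type libraries. Of the 12, 2 were called higher and 1 lower, 25.0% beside 25.1% of all genes, and none without knockout-labelled replicate 1. Their median difference was 0.18, and -0.05 when scaled by library totals alone.

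The label was first set against the target. On GRCm38, Nr0b2 (ENSMUSG00000037583) lies on chromosome 4, 133553376 to 133556536. It had 259, 86 and 74 reads in the knockout-labelled livers and 116, 91 and 147 in wild type. Its levels were 16.2, 5.01 and 4.52 in the knockout-labelled livers and 7.15, 5.95 and 8.29 in wild type. The groups overlapped, knockout-labelled replicate 0 being the highest of the 6, and the difference was 0.03 (SE 0.51, adjusted p = 0.975). The target's level therefore does not check the label, and all directions below are those of the label. The values are per gene and do not show where in the gene the reads fell.

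One knockout-labelled library stood apart. In replicate 1, 1432 genes (10.4%) lay over 2-fold from the mean of the other 2 libraries of its group, the largest number among the 48 libraries, against 388 and 539 in replicates 0 and 2 and 77 to 182 in wild type. Mitochondrial genes took 2.86% of its reads and 4.90% to 5.67% in the other 5. The serum amyloid gene Saa1, an acute phase gene, was at 38.8, 15785 and 65.8 in the knockout-labelled livers and at 59.0, 29.0 and 42.0 in wild type. The neutrophil lipocalin gene Lcn2 was at 6.30, 2316 and 16.4 and 50.9, 31.9 and 62.8, and the hepcidin gene Hamp, which restrains iron release, at 429, 4.87 and 440.3 and 132, 409 and 75.4. Among the livers used for comparison, knockout-labelled replicate 0 at ethanol 12am had 1254 such genes (9.11%) and knockout-labelled replicate 0 at control 6pm had 996 (7.24%), the next in rank. Results are therefore given with and without replicate 1 of the ethanol 6pm livers, and the part that such libraries play in them was otherwise not tested.

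With all 6 livers, 3452 genes (25.1%) were called, 1598 higher (11.6%) and 1854 lower (13.5%) in the knockout-labelled livers. Without knockout-labelled replicate 1, 1453 were called (10.6%), 733 higher (5.33%) and 720 lower (5.23%), and 1310 of these were among the 3452, all with the same sign. Over 2-fold changes made up 439 of the calls, 250 higher and 189 lower. The groups did not overlap in 4928 genes (35.8%), 2407 higher (17.5%) and 2521 lower (18.3%), of which 3128 were called. Spread was estimated over the 16 groups of the series together. With the spread of these 6 livers alone 65 genes were called, 63 of them among the 3452. Of 106 named genes called, 14 kept their call in that fit, and 79 kept it with the 24 ethanol libraries alone.

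The largest rise was that of Sult2a7, a sulfotransferase gene, at 183, 132 and 199.7 in the knockout-labelled livers and 0.508, 1.44 and 0.774 in wild type, a difference of 6.97 (SE 0.69, adjusted p = 9.84e-09). Hsd17b6, a hydroxysteroid dehydrogenase gene, was at 252, 86.4 and 132 against 19.7, 15.5 and 20.3 (log2 difference 2.92, SE 0.57, adjusted p = 0.000543). Sult2a7 belongs to a family with near-identical members, as do the Cyp2a and Cyp2c genes, Sult3a1, the class I genes and the globin genes below, and their levels are uncertain where reads match several members. Groups that did not overlap were a condition for naming the largest rises and falls. Sult2a7 and Hsd17b6 were called without replicate 1 too (adjusted p = 1.56e-07 and 0.00116). Dct, the melanin pathway gene for dopachrome tautomerase, was at 7.01, 6.61 and 8.57 against 0.506, 0.209 and 0.0514 (log2 difference 3.42, SE 0.49, adjusted p = 1.25e-05), and Mmd2 at 13.2, 16.1 and 11.2 against 0.633, 1.05 and 1.20 (log2 difference 3.27, SE 0.47, adjusted p = 1.67e-05). Cyp2c69, a cytochrome P450 gene, was at 48.04, 4.73 and 1.601 among the knockout-labelled livers, a wide spread, and at 0.473, 0.125 and 0.541 in wild type (log2 difference 3.24, SE 0.97, adjusted p = 0.0135). Cyp2c69 was not called without knockout-labelled replicate 0 (adjusted p = 0.144), nor with voom on recovered reads (adjusted p = 0.140). Mir675, a microRNA gene of the H19 locus, had 5, 11 and 1 reads in the knockout-labelled libraries and none in wild type. Over the groups this was at least 4.78-fold higher against a floor of 3 reads, and the call was lost without replicate 1 (adjusted p = 0.206).

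Among the falls, Elovl3, a fatty acid elongase gene, stood at 0.978, 0.771 and 6.50 in the knockout-labelled livers and 53.0, 62.9 and 11.4 in wild type (log2 difference -3.86, SE 0.73, adjusted p = 0.000381). Cyp2b10, the main drug-induced cytochrome of mouse liver, was at 29.4, 51.9 and 137 against 748, 378 and 741 (log2 difference -3.31, SE 0.78, adjusted p = 0.00273). Krt23, a keratin gene, was at 0.723, 0.379 and 1.99 against 10.9, 12.2 and 8.24 (log2 difference -2.96, SE 0.36, adjusted p = 6.55e-07), and Lad1, which encodes ladinin, at 0.402, 0.418 and 0.855 against 4.32, 6.01 and 5.34 (log2 difference -2.45, SE 0.36, adjusted p = 1.67e-05). In each of these 4 genes every knockout-labelled liver lay below every wild-type liver, as the naming rule required. Each was called without replicate 1. Cyp2a22, another cytochrome gene, was at 5.15, 1.33 and 6.80 against 33.5, 26.0 and 64.3, with a difference of -3.20 (SE 0.47, adjusted p = 1.79e-05).

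**Figure D1:**
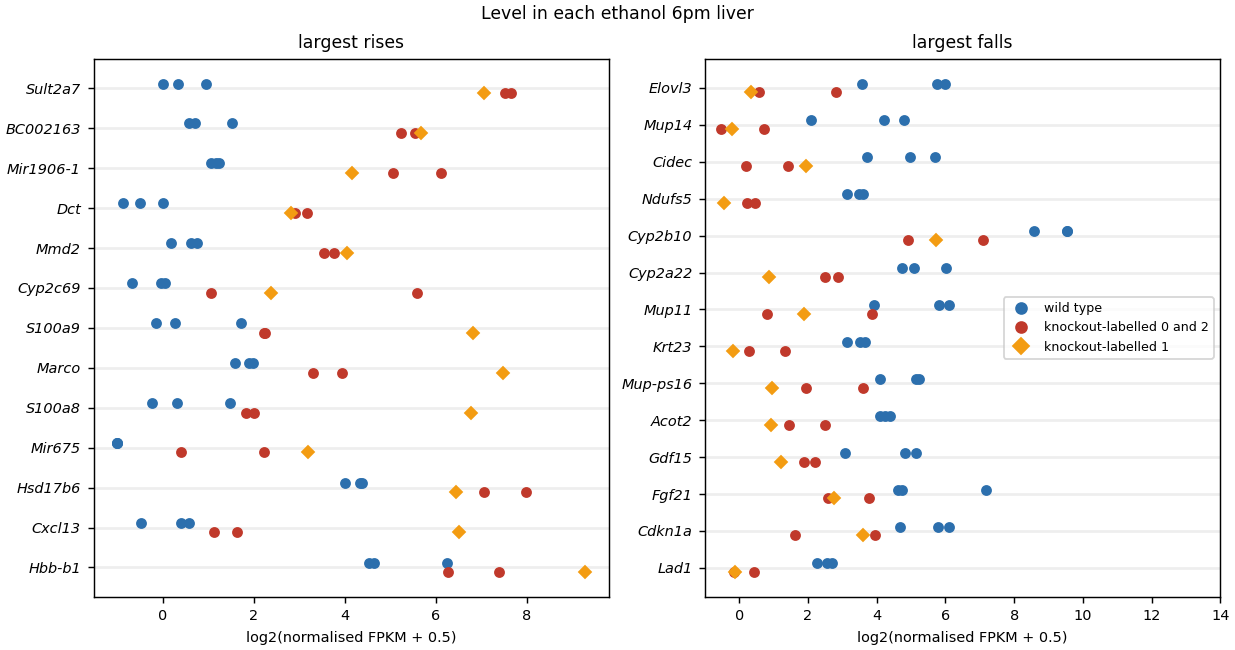
Levels of the named genes with the largest rises and falls (rows), one point per liver, on a log2(normalised FPKM + 0.5) axis. Blue points are wild type, red points knockout-labelled replicates 0 and 2, and the orange diamond knockout-labelled replicate 1, which lies far right of all others for S100a8, S100a9, Marco and Cxcl13 but with its group for Sult2a7, Dct and Krt23.

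Some genes differed in one direction wherever the genotype labels were compared. The genotype contrast in control livers at 6pm and in ethanol livers at 6am, 12pm and 12am uses other livers throughout, and called 800 (5.81%), 608 (4.42%), 385 (2.8%) and 1878 (13.6%) genes. A total of 42 genes were called in all 5 contrasts, 26 higher and 16 lower, each with one sign throughout. It was 41 genes without knockout-labelled replicate 0 at ethanol 12am, 37 without knockout-labelled replicate 0 at control 6pm and 45 without these 2 and replicate 1 at ethanol 6pm together, of which 38, 36 and 34 were among the 42. The control contrast called 345 genes without its knockout-labelled replicate 0. Of the 37 with a position in the annotation, 18 lay on chromosome 4 and 10 within 10 Mb of Nr0b2, while 883 of 13282 genes tested with a position lay on that chromosome. Of the 252 genes tested within 10 Mb of Nr0b2, 53 were higher and 35 lower at ethanol 6pm (34.9% called against 25.1% of all genes), and 30 were higher and 22 lower without knockout-labelled replicate 1 (20.6% against 10.6%).

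Ndufs5, a subunit gene of respiratory complex I on chromosome 4, and BC002163, annotated as a processed pseudogene on chromosome 16, moved in opposite directions. Over 319 aligned bases the reference sequences of the 2 genes differ at 2, and 196 of the 270 stretches of 50 bases in BC002163, the length of the reads, occur unchanged in the Ndufs5 transcript. The stretch of 60 coding bases that holds both differences is shown because, within the aligned bases, only reads that cover those positions tell the genes apart, with the differing bases in capitals (GENCODE M21, GRCm38, chr4:123715958-123716017 on the minus strand and chr16:42955693-42955752 on the plus strand).
Ndufs5: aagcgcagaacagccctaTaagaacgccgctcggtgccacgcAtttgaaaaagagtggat
BC002163: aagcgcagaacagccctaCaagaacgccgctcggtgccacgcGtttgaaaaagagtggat
Counted from 1 at the left end of this stretch, the differences are T19C and A43G, with the base of Ndufs5 first.

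Ndufs5 was at 0.658, 0.230 and 0.884 in the knockout-labelled livers and 11.5, 10.7 and 8.32 in wild type (log2 difference -3.33, SE 0.24, adjusted p = 1.21e-12). BC002163 was at 37.5, 50.9 and 46.3 against 2.39, 1.15 and 0.995 (log2 difference 4.55, SE 0.30, adjusted p = 1.47e-13). In reads, the knockout-labelled libraries held 8, 3 and 11 for Ndufs5 and 170, 248 and 215 for BC002163, and the wild-type libraries 142, 124 and 112 and then 11, 5 and 5. The sum of both was 178, 251 and 226 reads in the knockout-labelled and 153, 129 and 117 in the wild-type libraries. The separate levels of the 2 genes are uncertain, since no source used here says how reads that match both were treated. The genotype difference of Ndufs5 was -3.70 in controls at 6pm and -3.45, -3.51 and -3.73 in ethanol livers at 6am, 12pm and 12am. The glycolytic enolase gene Eno1, also on chromosome 4, was lower in all 5 contrasts (-1.20 at ethanol 6pm, -1.47 at control 6pm), while Gm5506, listed on chromosome 18, was higher in each (4.43 and 4.28), and the split of reads between these near-identical genes is uncertain.

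Other genes called in all 5 contrasts included Fbxo44, an F-box gene at 0.0468, 0.153 and 0.0229 against 1.89, 1.66 and 1.31, and Serinc2, at 1.46, 1.45 and 0.417 against 5.48, 5.14 and 4.54, both lower and both on chromosome 4. Tlr12, a Toll-like receptor gene on the same chromosome, was at 0.891, 1.41 and 0.414 against 4.597, 4.10 and 2.90 (log2 difference -1.68, SE 0.38, adjusted p = 0.00183). Asns, which encodes asparagine synthetase, was higher at 18.6, 57.2 and 30.3 against 5.28, 5.17 and 11.2 (log2 difference 2.16, SE 0.41, adjusted p = 0.000352). Scarb1, the receptor through which liver takes up cholesterol from HDL, was higher at 59.8, 35.9 and 30.2 against 13.9, 17.0 and 19.1 (log2 difference 1.26, SE 0.21, adjusted p = 8.67e-05). The imprinted noncoding gene Meg3 was at 3.28, 2.62 and 7.24 against 0.305, 0.209 and 0.459 (log2 difference 2.46, SE 0.37, adjusted p = 2.65e-05), and Mir1906-1, which lies in the same region of chromosome 12, had 37, 21 and 80 reads against 2 in each wild-type library. In each of these genes the groups did not overlap. Scarb1, Fbxo44, Serinc2, Tlr12, Meg3, Eno1 and Gm5506 were chosen after their values were seen.

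Genes of lipid droplets, the organelles that store triglyceride in hepatocytes, fell in part in the knockout-labelled livers: 4 of 14 tested members fell and none rose, with a median of -0.44 over the members and 0.00 over all genes tested. Those 28.6% called stand beside 25.1% of all genes. Without replicate 1 it was again 4 and none, beside 10.6% of all genes. Cidec, which promotes droplet fusion, was at 0.648, 3.34 and 2.16 against 51.5, 31.0 and 12.7 (log2 difference -3.62, SE 0.87, adjusted p = 0.00308). The perilipin gene Plin4 was at 0.897, 0.687 and 0.913 against 10.1, 7.84 and 2.30 (log2 difference -2.24, SE 0.39, adjusted p = 0.000161). Plin2, the coat protein of most liver droplets, was at 71.9, 120.3 and 89.0 against 289, 225 and 227 (log2 difference -1.42, SE 0.36, adjusted p = 0.00500), and Fitm1, which takes part in droplet formation, at 3.72, 5.06 and 6.89 against 22.4, 22.4 and 8.33 (log2 difference -1.58, SE 0.46, adjusted p = 0.0118). For all 4, the members with the smallest p-values, the groups did not overlap. Of the 14 members 8 were lower without overlap, beside 18.3% of all genes. Fitm1 was not called without knockout-labelled replicate 0 or wild-type replicates 0 and 1 (adjusted p = 0.0501, 0.0632 and 0.0605). The other 3 kept their calls in all 6 fits that left out 1 liver. The difference also differed from that in controls at 6pm for Cidec, by -5.05 (adjusted p = 0.0199), and for Plin4, by -2.90 (adjusted p = 0.00573), but that of Plin2 missed the threshold at -1.54 (adjusted p = 0.0845). In that test Cidec was not called without wild-type replicate 0 (adjusted p = 0.0544), nor with a replicate block (adjusted p = 0.0572).

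The methionine cycle and choline list, the source of phosphatidylcholine for membranes and lipoproteins, split: 2 of 19 rose and 2 fell, in all 6 livers and without replicate 1. Those 21.1% called lie below the 25.1% of all genes. Chka, the kinase that commits choline to phosphatidylcholine, was at 3.35, 3.87 and 5.74 against 17.96, 15.1 and 14.9 (log2 difference -1.80, SE 0.30, adjusted p = 0.000114). Pemt, which makes phosphatidylcholine from phosphatidylethanolamine, was at 199.6, 187 and 160.1 against 101, 104 and 89.5 (log2 difference 0.88, SE 0.13, adjusted p = 1.98e-05). The mitochondrial serine hydroxymethyltransferase gene Shmt2 was at 85.6, 85.6 and 81.8 against 54.4, 53.5 and 55.1 (log2 difference 0.63, SE 0.15, adjusted p = 0.00326). Mat2a, a methionine adenosyltransferase gene, was lower at 27.3, 24.9 and 38.1 against 41.0, 41.4 and 42.8 (log2 difference -0.49, SE 0.16, adjusted p = 0.0220). Mat2a was not called without knockout-labelled replicates 0 and 1 or wild-type replicate 2 (adjusted p = 0.0739, 0.168 and 0.0636), nor with the 24 ethanol libraries alone (adjusted p = 0.0782). The groups did not overlap for Chka, Pemt, Shmt2 and Mat2a, the members with the smallest p-values. Over the 19 members, 3 were higher and 2 lower without overlap, beside 35.8% of all genes in either direction.

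Apolipoproteins, the protein part of lipoproteins, rose in part: 6 of 14 rose and none fell, and 5 rose without replicate 1. Over all genes 11.6% rose, and 5.33% without replicate 1. Apoc2, the activator of lipoprotein lipase, was at 600.0, 829 and 591 against 348, 376 and 262 (log2 difference 1.03, SE 0.18, adjusted p = 0.000153). Apom, a carrier of sphingosine 1-phosphate, was at 362, 458 and 326 against 187, 184 and 215 (log2 difference 0.95, SE 0.17, adjusted p = 0.000179). Apoe, the ligand for remnant uptake, was at 9875, 11782 and 9677 against 6364, 6211 and 5739.5 (log2 difference 0.77, SE 0.16, adjusted p = 0.000946), and Apoc4 at 1655, 2202 and 1658 against 1116, 1121 and 764 (log2 difference 0.89, SE 0.18, adjusted p = 0.000923). In all 4, the members with the smallest p-values, every knockout-labelled liver lay above every wild-type liver. So it was in 7 of the 14 members and in 17.5% of all genes. Scaled by library totals alone, 5 rose and 1 fell.

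Of 22 fatty acid synthesis genes, 1 rose and 2 fell, and without replicate 1 it was 6 and 2. With all livers the share called (13.6%) lay below that of all genes. The synthase gene Fasn, named after its values were seen, was at 197, 51.0 and 110.2 against 32.7, 34.5 and 46.9 and was called only without replicate 1 (log2 difference 1.45, SE 0.60, adjusted p = 0.0703, then log2 difference 1.96, SE 0.65, adjusted p = 0.0472). Srebf1, which encodes the regulator SREBP-1, was at 45.9, 20.8 and 24.2 against 11.1, 10.8 and 15.8 and was not called (log2 difference 1.17, SE 0.48, adjusted p = 0.0698). The desaturase gene Fads2 rose, at 401, 194 and 351 against 152, 217 and 140.0 (log2 difference 0.85, SE 0.31, adjusted p = 0.0414), and the groups overlapped. Fads2 was not called without knockout-labelled replicates 0 and 2 or wild-type replicates 0 and 2 (adjusted p = 0.171, 0.104, 0.118 and 0.145), nor with the 24 ethanol libraries alone or library totals (adjusted p = 0.116 and 0.175). Insig2, which retains SREBP in the endoplasmic reticulum, fell, at 47.8, 83.4 and 79.2 against 375, 242 and 124 (log2 difference -1.71, SE 0.43, adjusted p = 0.00437). Of 22 cholesterol synthesis and uptake genes 2 rose and none fell, in all 6 livers and without replicate 1, and 1 rose without knockout-labelled replicate 2 or any 1 wild-type liver. The share called with all livers, 9.09%, lay below the background. However, the median of the 22 was 0.73, and 0.83 without replicate 1. In 14 of the 22 every knockout-labelled liver lay above every wild-type liver, beside 17.5% of all genes. Fdps, which makes farnesyl diphosphate, was called higher, at 144, 172 and 116 against 26.8, 32.2 and 45.6 (log2 difference 2.05, SE 0.47, adjusted p = 0.00226), and its groups did not overlap.

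Of 29 fatty acid oxidation genes and PPARα targets, 4 fell and 1 rose, and without replicate 1, or without wild-type replicate 0, it was 2 and 1. The share called with all livers, 17.2%, lay below the 25.1% of all genes. The thioesterase gene Acot2 was at 2.22, 1.38 and 5.10 against 20.4, 16.7 and 18.5 (log2 difference -2.63, SE 0.55, adjusted p = 0.00102). Pdk4, the kinase that turns off pyruvate dehydrogenase, was at 1.81, 1.30 and 1.71 against 12.3, 5.23 and 4.42 (log2 difference -1.76, SE 0.43, adjusted p = 0.00374). The ketone body enzyme gene Bdh1 rose, at 77.0, 61.8 and 66.5 against 39.5, 44.0 and 40.0 (log2 difference 0.72, SE 0.19, adjusted p = 0.00699). Bdh1 was not called with library totals (adjusted p = 0.0901). None of the 6 Cyp4a genes was called, although the wild-type values of Cyp4a14 (736, 542 and 438) lay mostly above the knockout-labelled ones (469, 66.2 and 88.5, log2 difference -1.99, SE 1.03, adjusted p = 0.152). Cyp4a10 was at 251, 99.9 and 56.6 against 344, 286 and 189.8 (log2 difference -1.23, SE 0.81, adjusted p = 0.268) and the male-predominant Cyp4a12a at 19.0, 32.0 and 92.6 against 32.8, 22.2 and 3.68 (log2 difference 1.40, SE 0.64, adjusted p = 0.102). The median of the 6 Cyp4a genes was -0.85, and -0.59 without replicate 1. With single livers left out, 1 rose without knockout-labelled replicate 0 or wild-type replicate 0, and 1 fell without knockout-labelled replicate 2. Near-identical Cyp4a copies may share reads.

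Of 17 stress hepatokine and growth arrest genes, 5 fell and none rose (2 and none without replicate 1), and of 21 targets of ATF4, the factor of the amino acid and integrated stress response, 5 fell and 1, Asns, rose (1 and 2 without replicate 1). The shares called, 29.4% and 28.6%, are near the 25.1% of all genes. Without wild-type replicate 0 it was 2 falls in each list, and without wild-type replicate 2 it was 2 falls of ATF4 targets. The hormone gene Fgf21 was at 5.48, 6.31 and 13.1 against 146, 26.0 and 23.9, with wild-type replicate 0 the highest (log2 difference -2.47, SE 0.83, adjusted p = 0.0272). Gdf15, another secreted stress hormone, was at 3.21, 1.81 and 4.07 against 34.8, 7.87 and 27.6 (log2 difference -2.58, SE 0.77, adjusted p = 0.0136), and Trib3, an ATF4-induced pseudokinase, at 6.12, 4.53 and 13.9 against 54.1, 36.1 and 35.2 (log2 difference -2.41, SE 0.63, adjusted p = 0.00569). Fgf21 was not called without knockout-labelled replicates 0 and 1 or wild-type replicate 0 (adjusted p = 0.0781, 0.103 and 0.201), nor with the 24 ethanol libraries alone (adjusted p = 0.0948). Gdf15 was not called without knockout-labelled replicate 1 or wild-type replicates 0 and 2 (adjusted p = 0.0801, 0.0739 and 0.0578). Trib3 was not called without knockout-labelled replicate 1 (adjusted p = 0.0506), nor with the 24 ethanol libraries alone (adjusted p = 0.0503). The p53 target Cdkn1a, which encodes the cell cycle inhibitor p21, was at 2.55, 11.6 and 15.01 against 67.7, 54.3 and 25.3 (log2 difference -2.46, SE 0.73, adjusted p = 0.0132), and Mdm2, another p53 target, at 5.89, 5.60 and 7.55 against 8.47, 8.68 and 9.81 (log2 difference -0.48, SE 0.11, adjusted p = 0.00267). Both were called without knockout-labelled replicate 1 (adjusted p = 0.0297 and 0.0335). Cdkn1a was not called without knockout-labelled replicate 0 or wild-type replicate 0 (adjusted p = 0.102 and 0.0614), nor with the 24 ethanol libraries alone or a replicate block (adjusted p = 0.0530 and 0.0504).

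Of 18 immediate early genes, which respond within minutes to growth factors and stress, 4 fell and none rose, and 1 fell without replicate 1 or without wild-type replicate 2. The share called with all livers, 22.2%, lay near the background. Jun was at 4.57, 4.07 and 7.48 against 20.2, 11.3 and 27.4 (log2 difference -1.74, SE 0.49, adjusted p = 0.00929) and Klf6 at 1.98, 2.39 and 2.62 against 8.71, 3.70 and 4.98 (log2 difference -1.08, SE 0.26, adjusted p = 0.00346). Jun was not called without knockout-labelled replicate 1 or wild-type replicate 2 (adjusted p = 0.0593 and 0.0589). Klf6 was the member that fell without replicate 1 too (adjusted p = 0.0170). Atf3 overlapped between the groups, at 4.03, 1.20 and 2.33 against 37.3, 3.99 and 14.3 (log2 difference -2.28, SE 0.83, adjusted p = 0.0405). Atf3 was not called without knockout-labelled replicates 1 and 2 or wild-type replicates 0 and 2 (adjusted p = 0.182, 0.0603, 0.234 and 0.0954), nor with the 24 ethanol libraries alone, array weights or voom on recovered reads (adjusted p = 0.0906, 0.0879 and 0.0683).

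The clock activators and the genes that REV-ERBα represses fell in part: 4 of 8 fell and none rose, with and without replicate 1, against 13.5% and 5.23% of all genes, while none of the 7 clock repressors was called in either. Arntl, which encodes the core activator BMAL1, was at 2.06, 4.84 and 4.32 against 8.95, 7.64 and 5.70 (log2 difference -0.95, SE 0.23, adjusted p = 0.00323). Its partner Clock was at 2.67, 1.91 and 3.90 against 6.98, 6.97 and 6.04 (log2 difference -1.15, SE 0.18, adjusted p = 4.50e-05), and Npas2, which can take the place of Clock, at 0.0148, 0.110 and 0.0144 against 0.394, 0.294 and 0.413 (log2 difference -0.67, SE 0.21, adjusted p = 0.0167). Rora, the activator that competes with REV-ERBα, was at 4.30, 1.84 and 4.86 against 11.6, 9.44 and 6.74 (log2 difference -1.29, SE 0.28, adjusted p = 0.00160). The groups of the 4 genes, those with the smallest p-values of the list, did not overlap. In all, 4 of the 8 members were lower without overlap, beside 18.3% of all genes. Npas2 rested on 1, 8 and 1 reads in the knockout-labelled and 27, 19 and 31 in the wild-type libraries. Npas2 was not called without wild-type replicates 0 and 2 (adjusted p = 0.0518 and 0.0578). Nr1d1 itself was at 7.11, 2.45 and 4.22 against 5.01, 7.34 and 11.3 and was not called (log2 difference -0.76, SE 0.46, adjusted p = 0.230). The repressor gene Per1 (11.4, 3.08 and 10.6 against 5.57, 8.91 and 3.28, log2 difference 0.37, SE 0.60, adjusted p = 0.691) and the output gene Dbp (20.97, 3.20 and 8.59 against 3.96, 4.90 and 6.74, log2 difference 0.68, SE 0.43, adjusted p = 0.248) were not called either, and Dbp was called without replicate 1 (log2 difference 1.32, SE 0.42, adjusted p = 0.0398).

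**Figure D2:**
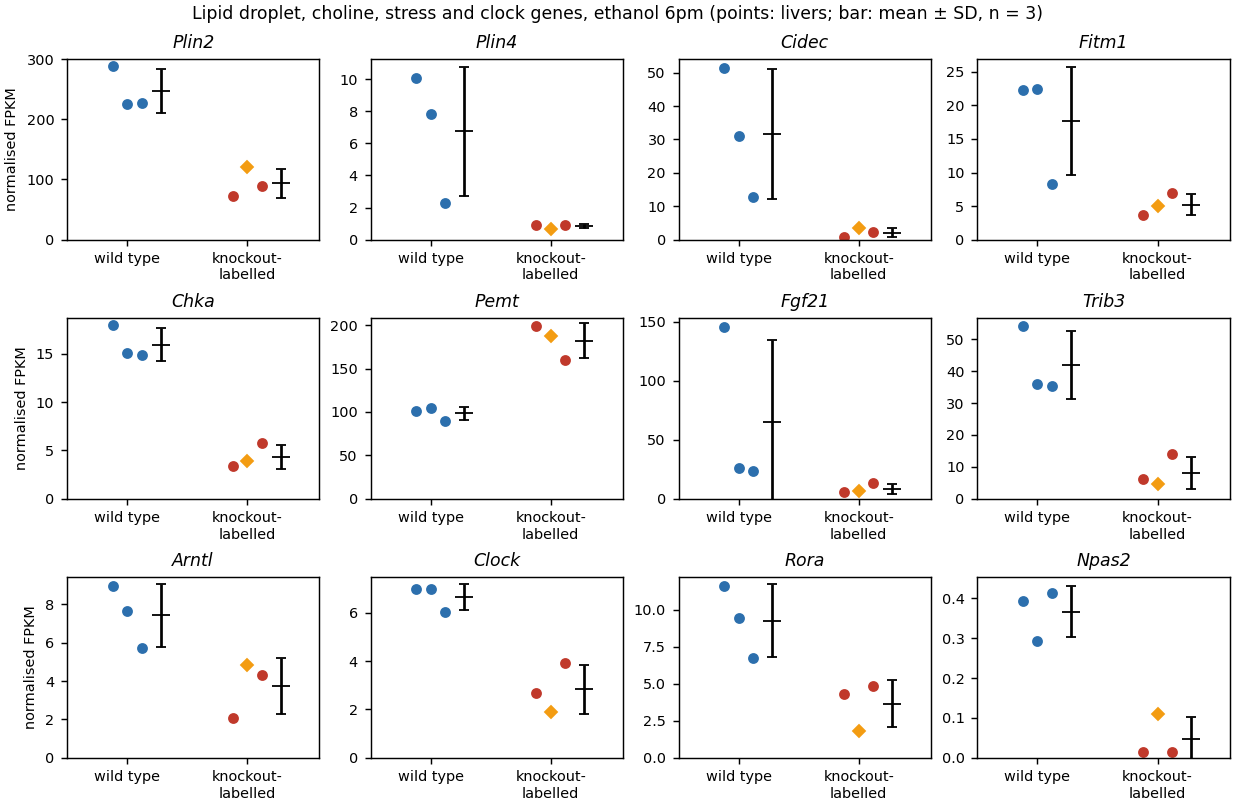
Normalised FPKM of 12 lipid droplet, choline, stress and clock genes in each liver, with the mean and SD (n = 3) beside the points and axes starting at 0, where the SD bars of Fgf21 and Npas2 are cut. Orange diamonds are knockout-labelled replicate 1. Plin2, Cidec, Chka and Clock are lower in all 3 knockout-labelled livers, and Pemt is higher.

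Of 22 nuclear receptors and partners of SHP, 2 rose and 3 fell, and 1 and 2 without replicate 1, wild-type replicate 0 or wild-type replicate 2. It was 3 and 6 without knockout-labelled replicate 2. The share called with all livers, 22.7%, lay near the 25.1% of all genes. Nr5a2 fell, at 9.46, 5.10 and 9.62 against 13.6, 12.2 and 15.05 (log2 difference -0.77, SE 0.17, adjusted p = 0.00178), and was called without replicate 1 at an adjusted p of 0.0478. Nr1h2, the gene of the oxysterol receptor LXRβ, rose, at 13.6, 17.0 and 13.02 against 9.29, 10.3 and 9.504 (log2 difference 0.55, SE 0.10, adjusted p = 0.000363). Neither Nr1h4 (69.5, 61.7 and 95.7 against 113, 97.8 and 85.3, log2 difference -0.40, SE 0.16, adjusted p = 0.0711) nor Hnf4a (188, 138 and 185 against 139, 151 and 133, log2 difference 0.26, SE 0.17, adjusted p = 0.273) was called. Among 15 bile acid synthesis genes 2 rose and 1 fell, and none rose and 1 fell without knockout-labelled replicates 0 or 1 or wild-type replicates 0 or 1. The share called lay below that of all genes. The rate-limiting enzyme gene Cyp7a1 was at 54.2, 29.0 and 78.0 against 13.8, 45.8 and 87.1 (log2 difference 0.37, SE 0.50, adjusted p = 0.619), and the groups overlapped. Cyp8b1, which directs synthesis to cholic acid, was at 268, 208 and 289 against 243, 204 and 139.7 (log2 difference 0.40, SE 0.43, adjusted p = 0.524). Acox2, a peroxisomal oxidase of the bile acid side chain, fell, at 52.3, 68.1 and 87.4 against 116, 105 and 98.4 (log2 difference -0.65, SE 0.16, adjusted p = 0.00427). Cyp2c70, the muricholic acid enzyme of mice, rose, at 354, 589 and 281 against 154, 96.6 and 255 (log2 difference 1.31, SE 0.46, adjusted p = 0.0347). Cyp2c70 was not called without knockout-labelled replicates 0 and 1 or wild-type replicates 0 and 1 (adjusted p = 0.0533, 0.204, 0.0794 and 0.179), nor with the 24 ethanol libraries alone or library totals (adjusted p = 0.103 and 0.0614).

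Of 20 targets of the xenobiotic receptors CAR and PXR, 3 fell and none rose, and without replicate 1 it was 1 and 1. Without knockout-labelled replicate 0 it was 1 fall, and the share called with all livers lay below that of all genes. Besides Cyp2b10 these were Cyp2c55, at 0.142, 0.0661 and 0.866 against 1.82, 1.30 and 3.52 (log2 difference -1.69, SE 0.52, adjusted p = 0.0171), and Cyp2c29, at 662, 487 and 1279 against 2026, 1249 and 2453 (log2 difference -1.30, SE 0.47, adjusted p = 0.0406). Cyp2c55 was not called without knockout-labelled replicates 0 and 1 or wild-type replicate 2 (adjusted p = 0.0558, 0.105 and 0.0967), nor with voom on recovered reads (adjusted p = 0.0710). Cyp2c29 was not called without knockout-labelled replicates 0 and 1 or wild-type replicates 0 and 2 (adjusted p = 0.0946, 0.225, 0.106 and 0.149), nor with the 24 ethanol libraries alone or voom on recovered reads (adjusted p = 0.109 and 0.0580). The ethanol oxidiser Cyp2e1 was at 3313, 2834 and 3303 against 3381, 3418 and 2209 (log2 difference 0.09, SE 0.26, adjusted p = 0.828), and the metallothionein gene Mt2 at 145, 1419 and 1288 against 798, 464 and 699 (log2 difference 0.01, SE 1.29, adjusted p = 0.996). Both overlapped between the groups.

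Of 21 genes that male mouse liver expresses above female liver, 6 fell and none rose, with a median of -1.13. Without replicate 1 it was 3 and none, with a median of -0.60. It was 10 and none without knockout-labelled replicate 2 and 3 and none without wild-type replicate 1, and the share called (28.6%) was near the 25.1% of all genes. Beside Elovl3 these included major urinary protein genes, near-identical copies whose counts may be split among them. Mup20 was at 49.2, 91.9 and 217 against 721, 966 and 215 (log2 difference -2.41, SE 0.60, adjusted p = 0.00379), and Mup14 at 0.196, 0.366 and 1.15 against 27.1, 18.01 and 3.76 (log2 difference -3.70, SE 0.88, adjusted p = 0.00277), with 4, 8 and 24 reads against 559, 351 and 85. Mup14 was not called with voom on recovered reads (adjusted p = 0.0501). Wild-type replicate 2 was the lowest of its group for all 3 genes. Of 16 female-predominant genes 4 rose and none fell, and 2 rose without replicate 0 or 1, a share of 25.0% with all livers. The sulfotransferase gene Sult3a1 was at 1.17, 10.2 and 1.84 against 0.192, 0.680 and 0.117 (log2 difference 2.13, SE 0.47, adjusted p = 0.00149), and Cyp2a4 at 31.8, 16.3 and 11.2 against 0.854, 1.16 and 13.1 (log2 difference 2.57, SE 0.80, adjusted p = 0.0177). Cyp2a4 was not called without knockout-labelled replicates 0 and 1 or wild-type replicates 0 and 1 (adjusted p = 0.0745, 0.0555, 0.115 and 0.0896), nor with the 24 ethanol libraries alone (adjusted p = 0.0568). The labels used here give no sex.

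Of 28 complement and coagulation genes 15 rose and none fell, and 7 and none without replicate 1. Over all genes 11.6% rose, and 5.33% without it. Scaled by library totals alone it was 9 and 2. Mbl2, a mannose-binding lectin that starts complement activation, was at 419.8, 377 and 339.8 against 200.5, 151 and 174 (log2 difference 1.12, SE 0.20, adjusted p = 0.000201). The clotting factor gene F7 was at 80.5, 93.9 and 73.3 against 39.7, 44.3 and 38.8 (log2 difference 0.998, SE 0.18, adjusted p = 0.000275) and F10 at 189, 262 and 163 against 111, 113 and 104 (log2 difference 0.87, SE 0.17, adjusted p = 0.000575). Kng1, the kininogen gene, was at 976, 1978 and 889.9 against 521, 491 and 500.1, highest in replicate 1 (log2 difference 1.25, SE 0.23, adjusted p = 0.000315). None of 24 acute phase genes was called, with and without replicate 1, with 2 rising without knockout-labelled replicate 0 or 2, and their median went from 0.75 to -0.04. Albumin (Alb) was at 64485, 47437 and 65621 against 47680.3, 46945 and 49962 (log2 difference 0.28, SE 0.26, adjusted p = 0.448).

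Of 18 genes of hepatocytes near the central vein 3 rose and 1 fell (2 and 1 without replicate 1), a share of 22.2% beside 25.1% of all genes. The glutamine synthetase gene Glul was at 307, 397 and 317 against 177, 208 and 181 (log2 difference 0.84, SE 0.18, adjusted p = 0.000983) and Gulo, the last enzyme of vitamin C synthesis, at 219.8, 213 and 230.3 against 122, 138 and 116 (log2 difference 0.81, SE 0.18, adjusted p = 0.00135). Of 25 genes of gluconeogenesis, glycolysis and glycogen, 2 rose and none fell (4 and none without replicate 1), a share of 8.0%. The phosphofructokinase gene Pfkl was at 15.7, 11.6 and 11.7 against 6.56, 5.99 and 5.71 (log2 difference 1.02, SE 0.11, adjusted p = 6.34e-08), and Fbp1, the gluconeogenic enzyme opposing it, at 976, 1004 and 900.0 against 536, 585 and 382 (log2 difference 0.96, SE 0.21, adjusted p = 0.00167).

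Of the 12 Kupffer cell markers tested, 11 rose, and none was called without replicate 1, where their median was 1.15 against 1.79 with it. Without wild-type replicate 2 it was 6. Of all genes, 11.6% rose with all livers and 5.33% without knockout-labelled replicate 1. Their summed level was 329.7, 1196 and 217.8 in the knockout-labelled and 121.9, 161.3 and 79.0 in the wild-type livers, and all 12 were above 0 in each of the 6. Neither group's range overlapped the other with or without replicate 1. The complement component gene C1qa was at 51.5, 206 and 36.1 against 20.6, 25.0 and 13.02 (log2 difference 1.92, SE 0.46, adjusted p = 0.00315, then log2 difference 1.17, SE 0.44, adjusted p = 0.0798 without it), and the scavenger receptor gene Marco at 14.9, 177 and 9.43 against 3.24, 2.53 and 3.47 (log2 difference 3.08, SE 1.01, adjusted p = 0.0245, then log2 difference 1.80, SE 1.04, adjusted p = 0.275). Marco was not called without knockout-labelled replicate 1 or wild-type replicates 0, 1 and 2 (adjusted p = 0.275, 0.0557, 0.0649 and 0.0532), nor with the 24 ethanol libraries alone, a replicate block or voom on recovered reads (adjusted p = 0.0580, 0.0523 and 0.0563). Of 9 neutrophil and monocyte markers tested, 4 rose, and none was called without replicate 1. It was 7 without knockout-labelled replicate 2 and 1 without wild-type replicate 0. The sum over the 11 members found was 14.2, 269 and 12.97 against 3.76, 5.48 and 7.15, with 1, 0 and 3 members at 0 against 2, 1 and 3. The calgranulin gene S100a8 was at 3.07, 109 and 3.53 against 0.356, 0.755 and 2.28 (log2 difference 3.01, SE 0.93, adjusted p = 0.0171). S100a8 was not called without knockout-labelled replicate 1 or wild-type replicate 0 (adjusted p = 0.312 and 0.0760), nor with voom on recovered reads (adjusted p = 0.0935). More cells of a type and more RNA per cell cannot be told apart in bulk liver.

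Red cell markers summed to 71.7, 192.5 and 37.3 in the knockout-labelled and 49.3, 28.8 and 15.8 in wild-type livers, and the globin gene Hbb-b1 was at 169, 626 and 76.5 against 75.1, 24.4 and 22.6 (log2 difference 2.52, SE 0.67, adjusted p = 0.00620), which was not called without replicate 1 (adjusted p = 0.105). The B cell chemokine gene Cxcl13 was at 1.69, 90.8 and 2.59 against 0.832, 1.01 and 0.218 (log2 difference 2.91, SE 0.88, adjusted p = 0.0147). Cxcl13 was not called without knockout-labelled replicate 1 or wild-type replicate 2 (adjusted p = 0.323 and 0.0657), nor with the 24 ethanol libraries alone, array weights or voom on recovered reads (adjusted p = 0.0519, 0.146 and 0.104). The log2 difference was 1.20 without replicate 1. Of 16 class I antigen presentation genes 6 rose and none fell, and 1 rose without replicate 1. It was 3, 2 and 1 without wild-type replicates 0, 1 and 2, and 2 with library totals alone. Of all genes, 11.6% rose with all livers and 5.33% without replicate 1. The member that rose without replicate 1 was H2-Q10, a class I gene of liver, at 403, 479 and 402 against 241, 242 and 219.9 (log2 difference 0.87, SE 0.15, adjusted p = 0.000106). Endothelial markers summed to 100.9 to 121.0 against 79.3 to 100.7, and pancreatic acinar markers to 11.2, 8.26 and 44.7 against 5.58 to 8.72.

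**Figure D3:**
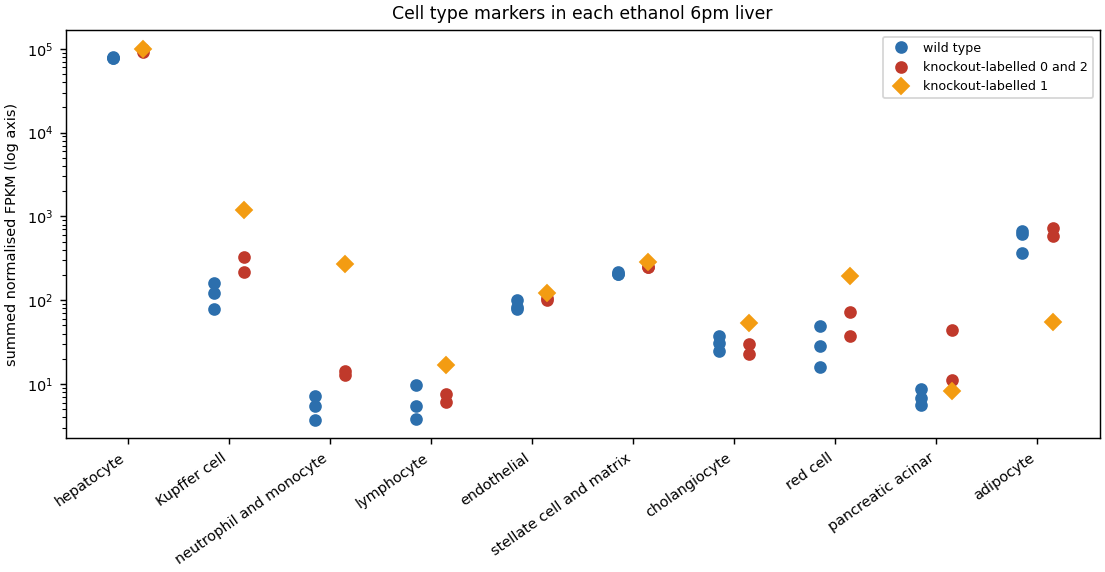
Summed normalised FPKM of 10 cell type marker lists in each ethanol 6pm liver, on a log axis. Blue points are wild type, red points knockout-labelled replicates 0 and 2 and orange diamonds replicate 1, which stands highest for Kupffer cell (1196) and neutrophil and monocyte markers (269) and lowest for adipocyte markers (54.4). Of the 6 adipocyte markers, 5, 5 and 4 were at 0 in the knockout-labelled livers and 4 in each wild-type liver, so their sum rests on few genes.

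Complex I and proteasome genes were called mostly where replicate 1 was in the fit. Of 38 complex I entries 15 rose and 1, Ndufs5, fell, and without replicate 1 it was 2 and 1, and without wild-type replicate 2 it was 5 and 1. Ndufs6, one that kept its call (adjusted p = 0.0185 without it), was at 51.7, 64.5 and 65.4 against 42.8, 44.9 and 34.7 (log2 difference 0.56, SE 0.13, adjusted p = 0.00191). The complex I median was 0.32 with all livers and 0.26 without replicate 1. Without overlap between the groups, 26 of the 38 complex I entries were higher and 2 lower. For the proteasome it was 8 and 0 of 32, and over all genes 17.5% and 18.3%. Of 32 proteasome entries 9 rose and none fell, and 2 rose without replicate 1, where the median was 0.00. It was 5 without wild-type replicate 1 or 2. Scaled by library totals alone, complex I had 4 rises and 2 falls and the proteasome 2 rises and 3 falls. Of all genes, 11.6% rose with all livers and 5.33% without replicate 1. The 2 rises of each list without it lay near that share. Psmb1 was at 116, 182 and 115 against 94.3, 87.9 and 85.8 (log2 difference 0.59, SE 0.13, adjusted p = 0.00142) and Psmb6 at 54.3, 71.5 and 51.1 against 42.6, 40.2 and 35.2 (log2 difference 0.57, SE 0.13, adjusted p = 0.00163), and both kept the call.

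**Figure D4:**
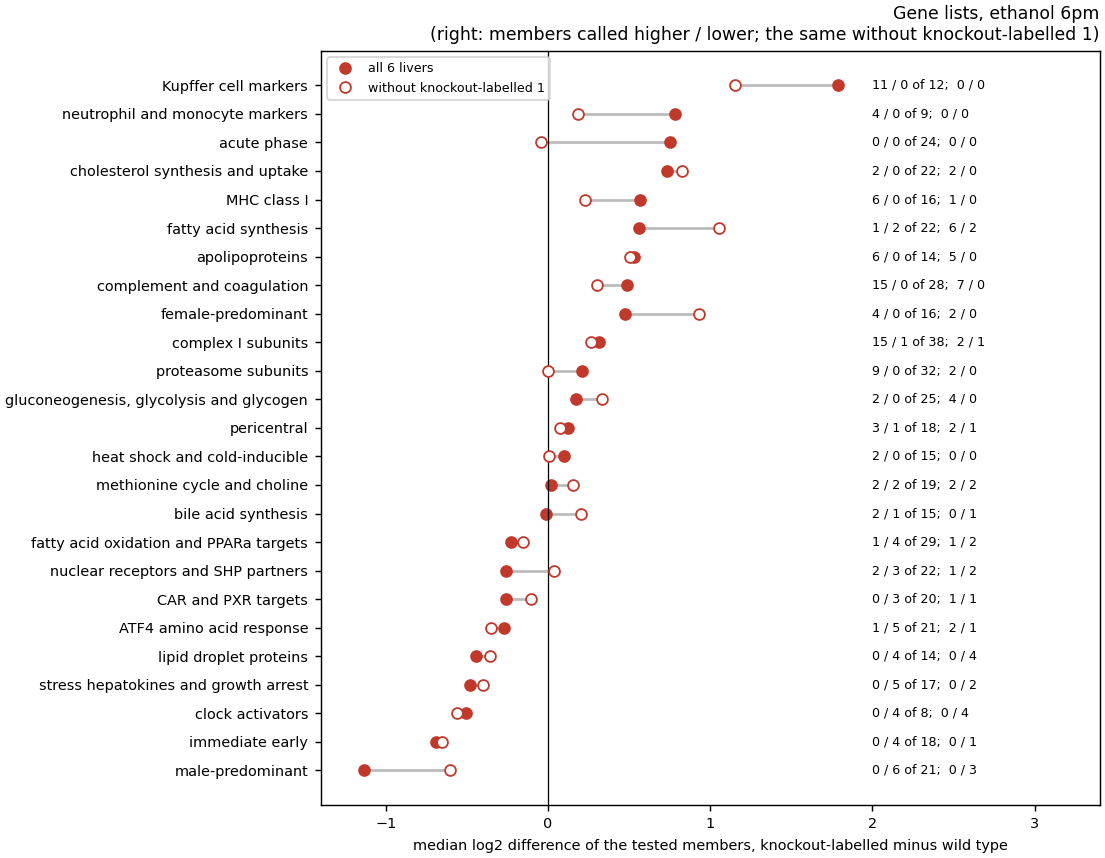
Median log2 difference of the tested members of 25 gene lists, knockout-labelled minus wild type at ethanol 6pm, with all 6 livers (filled) and without knockout-labelled replicate 1 (open), on a linear axis. The counts at the right are members called higher and lower. Without replicate 1 the median of the Kupffer cell list goes from 1.79 to 1.15 and that of the acute phase list from 0.75 to -0.04, and the lipid droplet and clock activator lists keep 4 falls each.

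The genotype difference at ethanol 6pm was set against that in control livers at 6pm. It differed for 412 genes (2.99%), 193 higher (1.4%) and 219 lower (1.59%), and for 171 (1.24%) without knockout-labelled replicate 1. Leaving out control livers, it was 671 without knockout-labelled replicate 0, 129 without knockout-labelled replicate 1 and 256 without wild-type replicate 0. Krt23 differed by -2.90 (adjusted p = 0.00460), its genotype difference being -0.06 in controls. Phospho1, a phosphatase of phosphocholine and phosphoethanolamine, fell at ethanol 6pm, at 3.19, 3.98 and 4.63 against 18.1, 13.1 and 18.2 (log2 difference -1.93, SE 0.29, adjusted p = 2.52e-05), and differed from controls by -2.33 (adjusted p = 0.00460). Slc17a2, a phosphate transporter family gene, was higher at 49.5, 27.2 and 30.7 against 21.1, 18.5 and 16.6 (log2 difference 0.87, SE 0.20, adjusted p = 0.00222) but lower in knockout-labelled controls (-1.03, adjusted p = 0.00168), a difference of 1.91 (adjusted p = 0.00124). Cdkn1a was lower at ethanol 6pm and higher in knockout-labelled controls (2.49, adjusted p = 0.0375), a difference of -4.95 (adjusted p = 0.00827). The corepressor gene Bcor (-0.81 at ethanol 6pm, 0.59 in controls) and the coactivator gene Zmiz1 (-0.71 and 0.61) also lay on opposite sides. At ethanol 6pm Zmiz1 was not called without knockout-labelled replicate 1 (adjusted p = 0.0565). Pacs2, a sorting protein gene, was not called at ethanol 6pm (log2 difference -0.06, SE 0.14, adjusted p = 0.803) and was higher in knockout-labelled controls (1.003, adjusted p = 7.36e-06).

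Among the lists, 13 of the 28 complement and coagulation genes differed from controls at 6pm, all upwards, and 3 without knockout-labelled replicate 1 of the ethanol livers. With single control livers left out it was 4 to 15. With all livers 2 of the 14 lipid droplet genes and 2 of the 8 clock activators differed downwards, and 2 and 1 without that replicate. With single control livers left out it was 2 to 3 and 0 to 4. The control libraries at 6pm carry an ethanol treatment tag while their titles name the control, and the titles were followed.

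Against the mean of the other ethanol times the genotype difference differed for 1944 genes (14.1%), 961 higher (6.98%) and 983 lower (7.14%), and for 538 (3.91%) without knockout-labelled replicate 1. It was 2439 without knockout-labelled replicate 0 at ethanol 12am. Krt23 differed by -3.08 (adjusted p = 3.22e-05) and Chka by -2.46 (adjusted p = 7.09e-05). The mitochondrial chaperonin gene Hspe1 was at 28.1, 42.7 and 29.4 against 23.1, 24.5 and 25.0 (log2 difference 0.43, SE 0.14, adjusted p = 0.0240) and differed by 1.24 (adjusted p = 3.22e-05). At ethanol 6pm Hspe1 was not called without knockout-labelled replicate 1 or wild-type replicate 0 (adjusted p = 0.280 and 0.0783), nor with the 24 ethanol libraries alone, array weights or library totals (adjusted p = 0.0888, 0.0583 and 0.285). Cacybp, which encodes a calcyclin-binding protein, was at 22.4, 20.8 and 19.1 against 12.5, 13.8 and 12.5 and differed by 1.19 (adjusted p = 3.22e-05). The ribosomal protein gene Rps25 was at 73.8, 104 and 89.9 against 39.9, 47.7 and 45.7 and differed by 0.98 (adjusted p = 7.09e-05). Wdfy1, one of the 42 genes called in all 5 contrasts, was higher by 0.39 at ethanol 6pm, by 1.17 at control 6pm and by 1.39, 1.38 and 1.38 at the other ethanol times, and differed by -0.99 (adjusted p = 4.39e-05). At ethanol 6pm Wdfy1 was not called without knockout-labelled replicates 0 and 2 or wild-type replicates 0 and 2 (adjusted p = 0.0626, 0.0619, 0.0611 and 0.0577), nor with the 24 ethanol libraries alone or library totals (adjusted p = 0.0665 and 0.305).

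By list, 25 of the 38 complex I entries, 18 of the 32 proteasome entries and 10 of the 15 heat shock and cold-inducible genes differed from the other ethanol times, all upwards. Without knockout-labelled replicate 1 it was 8, 6 and 4, and with single livers of the other times left out 23 to 27, 15 to 23 and 9 to 10. Upwards here means a more positive genotype difference than at the other times. At ethanol 6pm itself, 2 of the 15 heat shock and cold-inducible genes rose and 0 fell, with a median of 0.10. Without knockout-labelled replicate 1 none was called, with a median of 0.01. All 4 clock activators that fell at ethanol 6pm also differed from the other ethanol times, with -1.73 (adjusted p = 0.00168) for Rora, -1.002 (adjusted p = 0.0125) for Arntl, -0.84 (adjusted p = 0.00823) for Clock and -0.94 (adjusted p = 0.00946) for Npas2. Of the lipid droplet genes Cidec (-3.60, adjusted p = 0.0167), Plin4 (-2.05, adjusted p = 0.00466) and Plin2 (-1.397, adjusted p = 0.0246) did. In the same test without knockout-labelled replicate 1, Clock was not called (adjusted p = 0.0752), while Rora (0.0180), Arntl (0.0168), Npas2 (0.0237), Cidec (0.0355), Plin4 (0.0228) and Plin2 (0.0428) were. In this test Arntl was not called without knockout-labelled replicate 0 or wild-type replicate 0 (adjusted p = 0.0741 and 0.0544), nor with the 24 ethanol libraries alone (adjusted p = 0.0652). Cidec was not called without knockout-labelled replicate 0 or wild-type replicate 0 (adjusted p = 0.0529 and 0.0635), nor with the 24 ethanol libraries alone (adjusted p = 0.0811). Plin2 was not called without knockout-labelled replicate 0 or wild-type replicate 0 (adjusted p = 0.0675 and 0.0729), nor with the 24 ethanol libraries alone (adjusted p = 0.1003).

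**Figure D5:**
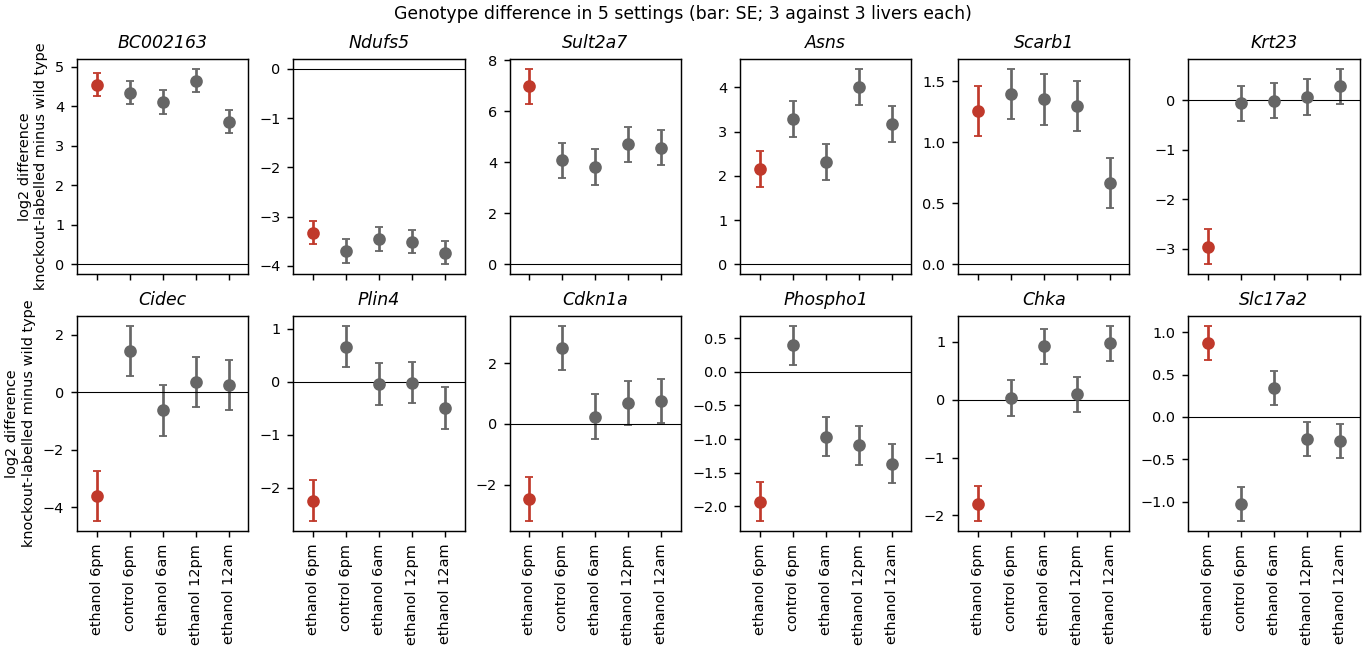
Log2 difference, knockout-labelled minus wild type, of 12 genes at ethanol 6pm (red) and in control livers at 6pm and ethanol livers at 6am, 12pm and 12am (grey), each from 3 against 3 livers, with bars of 1 SE and a separate linear axis for each gene. BC002163, Ndufs5, Sult2a7, Asns and Scarb1 keep their sign in all 5 settings, whereas Krt23 is at -2.96 at ethanol 6pm and near 0 elsewhere.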

How the data were processed

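RNA from 48 mouse livers was read as poly(A) libraries (TruSeq, HiSeq, single reads of 50 cycles), per the labels' protocols. The kit does not mark strand. The deposited values are FPKM per gene made by the authors, and the submitters' processing notes name Novoalign and GRCm38. Whole reads were recovered from the FPKM steps for 100% of the 15041 genes (relative tolerance 1e-10). FPKM were divided by a TMM factor (trimming 30% of fold changes and 5% of levels), and log2(value + 0.5) was fitted with limma 3.58.1 (R 4.3.3) as means of 16 groups of 3 livers, with a mean-variance trend. Genes had at least 0.5 FPKM in at least 3 of the 48 libraries (13765 genes), with Benjamini-Hochberg adjustment across them. The same fit gave the differences from the control and from the other ethanol times. Python 3.11.15, pandas 2.3.3 and numpy 2.4.6 were used. The script was tested on simulated data.

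Gene lists and named genes were chosen with earlier results of these data known. Named were the 14 largest rises and falls among called genes with a mean of at least 1 FPKM, groups that did not overlap and no predicted-gene name, up to 4 members of each list described with the smallest adjusted p, the 6 genes with the smallest adjusted p in each difference, and a set list of SHP, bile acid, Cyp4a, clock, acute phase and ethanol genes. Genes outside these rules are named as such. A few genes that the rules select are not reported here. IDs were matched to GENCODE M21 for 14518 genes. Alternatives were other pseudocounts, filters, scalings, weights, library sets, a replicate block and leaving out each liver, with the livers of the comparison groups and the libraries that stood apart left out after the data were seen. The labels name 3 mice per group. Since the treatment tag differs from the title in 24 libraries, the title was used.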

Additional observations from a re-analysis of the deposited data

Results flagged for a closer look

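For the genes below, the difference between knockout-labelled and wild-type livers at ethanol 6pm differed from the same difference in other livers, by a test of the difference itself (limma, adjusted over all 13765 genes tested). Values are differences of log2 differences, first against control livers at 6pm. They were -5.05 for Cidec, -2.95 for Cyp2a22, -2.90 for Krt23, -3.75 for Acot2, -4.95 for Cdkn1a and -2.29 for Lad1. Among genes chosen for this test they were 1.91 for Slc17a2, -1.33 for Zmiz1, -2.33 for Phospho1, -1.06 for Pacs2, -1.40002 for Bcor, 0.73 for Cacybp, -0.78 for Wdfy1 and -1.83 for Chka.

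Against the mean of the ethanol livers at 6am, 12pm and 12am, the values were 2.61 for Sult2a7, -2.88 for Elovl3, -3.60 for Cidec, -3.08 for Krt23, -2.96 for Fgf21, -3.02 for Cdkn1a and -1.30 for Lad1. They were 0.94 for Slc17a2, -0.70 for Zmiz1, -0.74 for Bcor, 1.24 for Hspe1, 1.19 for Cacybp, -0.99 for Wdfy1, -2.46 for Chka and 0.98 for Rps25. Calls lost with a liver left out or with another setting are given next, first in the test against the other ethanol times. Sult2a7 was not called without knockout-labelled replicate 1 or wild-type replicates 0 and 2 (adjusted p = 0.0628, 0.0771 and 0.0617), nor with the 24 ethanol libraries alone, a replicate block or voom on recovered reads (adjusted p = 0.114, 0.0529 and 0.294). Elovl3 was not called without knockout-labelled replicates 0 and 1 or wild-type replicates 0 and 1 (adjusted p = 0.0597, 0.112, 0.0724 and 0.0806), nor with the 24 ethanol libraries alone or voom on recovered reads (adjusted p = 0.0519 and 0.0557). Fgf21 was not called without knockout-labelled replicates 0 and 1 or wild-type replicate 0 (adjusted p = 0.0765, 0.112 and 0.174), without either of 2 livers of the other ethanol times (highest adjusted p = 0.0502), nor with the 24 ethanol libraries alone or voom on recovered reads (adjusted p = 0.125 and 0.106). Cdkn1a was not called without knockout-labelled replicate 0 or wild-type replicate 0 (adjusted p = 0.0741 and 0.0576), nor with the 24 ethanol libraries alone or a replicate block (adjusted p = 0.0755 and 0.0611). Lad1 was not called without knockout-labelled replicates 0 and 1 or wild-type replicates 1 and 2 (adjusted p = 0.0686, 0.110, 0.0817 and 0.0693), nor with the 24 ethanol libraries alone, a replicate block or voom on recovered reads (adjusted p = 0.0920, 0.0705 and 0.0808). Zmiz1 was not called without knockout-labelled replicate 1 (adjusted p = 0.138). Bcor was not called without knockout-labelled replicate 1 or wild-type replicate 2 (adjusted p = 0.114 and 0.0734), nor with array weights (adjusted p = 0.0729). Cidec was not called without knockout-labelled replicate 0 or wild-type replicate 0 (adjusted p = 0.0529 and 0.0635), nor with the 24 ethanol libraries alone (adjusted p = 0.0811). In the test against controls, Cyp2a22 was not called without knockout-labelled replicate 1 (adjusted p = 0.0551), nor with a pseudocount of 0.1 or voom on recovered reads (adjusted p = 0.0683 and 0.199). Cidec was not called without wild-type replicate 0 (adjusted p = 0.0544), nor with a replicate block (adjusted p = 0.0572). Krt23 was not called with voom on recovered reads (adjusted p = 0.0576). Cacybp was not called without knockout-labelled replicates 0 and 1, wild-type replicates 0 and 2, knockout-labelled control replicate 1 or wild-type control replicates 0 and 2 (adjusted p = 0.0606, 0.0725, 0.0667, 0.0762, 0.113, 0.0638 and 0.0586), nor with library totals or a replicate block (adjusted p = 0.295 and 0.0891). Beyond leaving livers out, the part of single livers in these differences was not tested. Groups of 3 livers are too small for a test of single outlying samples.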

How the results depend on the processing

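The count of 3452 called genes became 2180 with the 24 ethanol libraries alone and 65 with the 6 livers alone, and ranged from 1453 to 4345 when each liver was left out, lowest without knockout-labelled replicate 1. Scaled by library totals alone it split into 556 higher and 3339 lower, with the median of all genes at -0.16. The count of 412 against controls became 2120 with library totals (64 higher and 2056 lower, median -0.31) and 1148 with array weights, and ranged from 129 to 1099 over livers left out. It was 129, 256 and 671 without knockout-labelled control replicate 1, wild-type control replicate 0 and knockout-labelled control replicate 0, 171 without knockout-labelled replicate 1, 1099 without knockout-labelled replicate 2, and 273 and 179 without wild-type replicates 1 and 2. The count of 1944 against the other ethanol times became 3683 with array weights and 575 with the 24 ethanol libraries, split into 277 and 1483 with library totals (median -0.13), and ranged from 538 to 2887 over livers left out. It was 538 without knockout-labelled replicate 1 and 1194 and 1188 without wild-type replicates 0 and 2, and 1649 to 2439 without 1 liver of the other times. Leaving out the livers of the comparison groups was chosen after seeing the data. The cause of these shifts was not tested.

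Same-numbered livers did not deviate together (r = -0.05, -0.07 and -0.15), so the numbers do not pair them. With a replicate block the counts were 3045, 235 and 1361.

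Of 106 named genes called, none changed sign under any alternative run. Most were named for large differences or small p-values in these same data, so a change of sign was unlikely from the start. Of the 106, 65 kept their call without knockout-labelled replicate 1, 79 with the 24 ethanol libraries alone or without wild-type replicate 0, and 14 with the 6 livers alone. Sign changes were limited to named genes that were not called. Nr0b2 was at -0.18 with library totals, -0.0025 with voom on recovered reads, and from -0.53 to 0.34 with each liver left out. Mt2 was at -0.22, -1.10 with array weights, and from -0.56 to 1.08 with livers left out. Hamp was at 0.77 with array weights and from -1.74 to 1.44. Pacs2 was at 0.20 with array weights and from -0.20 to 0.12. Lcn2 was at -1.94 with array weights and ranged from -2.14 (without knockout-labelled replicate 1) to 2.07. Cyp2e1 was at -0.14 with library totals and from -0.11 to 0.20 with livers left out, and Cyp7a1 from -0.34 to 0.96. Genes with few reads, such as Npas2 and Mir675, are the least precise.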
